A study of Homo sapiens with 12 samples.

Results

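The stanniocalcins STC1 and STC2 are a pair of paralogous secreted glycoprotein hormones, and the data below follow their transcripts in human glioblastoma cells at low oxygen. Both were found by symbol among probe sets that the platform annotation pairs with a single gene. Where a gene has several, the probe set is selected on the highest mean over the 12 arrays. Each of the pair had 1, so that value decided nothing, and the pair makes up 2 of the 14232 genes measured. The pair was put forward, and the share of its hypoxic rise left with each siRNA named as the measure to compare, with results of these arrays known. Its changes and their p-values therefore describe these arrays and are not independent evidence. The cells were LN229, an established glioblastoma line, and the labels give no difference between groups other than the oxygen level and the siRNA. Of the 12 arrays, 3 came from cells at 20% oxygen with non-targeting control siRNA (normoxia). The other 3 groups of 3 were kept at 1% oxygen with control siRNA, with siRNA against HIF1A (written HIF-1A in the labels), or with siRNA against HIF2A (HIF-2A, gene symbol EPAS1). Transfection followed seeding by 24 h, the oxygen change came 48 h later, and cells were harvested 16 h after that. The line is a single culture model without the vessels and other cells of a tumour, and an siRNA lowers a transcript without removing it. The labels do not say whether replicates came from separate cultures, so the p-values reflect the spread among these arrays alone, and that spread may be technical.

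Stanniocalcin was first known in bony fish as a hormone that lowers blood calcium, and mammals have the paralogs STC1 and STC2, which act mostly near the cells that release them. Both proteins bind and inhibit the pappalysins PAPP-A and PAPP-A2, proteases that free insulin-like growth factors (IGFs) by cutting their binding proteins. STC1 is a known target of the hypoxia-inducible factors (HIFs). STC2 is known both as a HIF target and as a gene of the PERK and ATF4 stress pathway, which answers amino acid shortage and misfolded protein in the endoplasmic reticulum. HIF1A and EPAS1 encode the oxygen-regulated HIF subunits, and the design sets the siRNA against each beside a control siRNA at low oxygen.

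RefSeq's promoter table (GRCh38.p14) matched 1 of the pair, STC2, and the 250 bases before its annotated start are shown because HIF binding motifs can be looked for there. They lie at chr5:173328415-173328664 on the minus strand. Capitals mark every match, on either strand, to GCGTG, a core letter string of hypoxia response elements, or to CCAAT, a general promoter box.

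STC2 promoter: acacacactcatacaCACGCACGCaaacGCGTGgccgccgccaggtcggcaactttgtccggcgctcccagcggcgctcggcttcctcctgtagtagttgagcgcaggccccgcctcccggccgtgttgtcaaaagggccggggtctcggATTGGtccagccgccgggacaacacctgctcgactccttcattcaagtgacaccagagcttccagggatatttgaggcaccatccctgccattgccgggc

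The letters GCGTG occurred 3 times, beginning 235, 231 and 222 bases before the start, and the first 2 matches share a base. The other core string, ACGTG, had 0 matches in this window, and so did TGATGNAA, the letters searched for the composite element bound by ATF4. CCAAT occurred once, beginning 100 bases before the start. Among 35116 promoters cut to the same length, 32.2% held GCGTG, 18.5% ACGTG, 43.2% either of these, 3.14% TGATGNAA and 32.0% CCAAT. These matches describe the letters only, and no binding was measured.

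Arrays of a group correlated at r = 0.983 to 0.994 across probe sets. The targeted transcripts were lower with their siRNA. HIF1A stood at 11.72, 11.40 and 11.26 on the log2 scale in hypoxia with control siRNA and at 8.20, 9.06 and 7.74 with HIF1A siRNA (adjusted p = 1.6e-04). EPAS1 fell to 16.6% of its control siRNA level with HIF2A siRNA (adjusted p = 3.1e-05). It also fell to 35.8% with HIF1A siRNA (adjusted p = 3.1e-04), so the HIF1A siRNA arrays carried less of both transcripts than the hypoxic control arrays. EPAS1 itself had risen 2.29-fold in hypoxia (adjusted p = 7.1e-04). Against normoxia it stood at 81.9% with HIF1A siRNA, not called (adjusted p = 0.15), and at 37.9% with HIF2A siRNA (adjusted p = 2.7e-04). All adjusted p-values are from limma, over 14232 genes, and a gene is called at an adjusted p under 0.05. The third HIF1A siRNA array had the narrowest range of values, with an upper quartile of 7.88 against 8.20 to 8.57 on the other arrays. Of 8 glioma and astroglial markers 5 lay above the median of every array (VIM, NES, CD44, EGFR and S100B), whereas GFAP averaged 6.37, SLC1A3 4.40 and AQP4 3.21, the last below the lower quartile of every array. Markers of other cell types were mixed. Above the median of every array lay 2 of 5 epithelial markers (KRT8 at 11.26 and KRT18 at 9.55), 1 of 4 of microglia and leukocytes (CD68, 8.49), 1 of 4 of neurons (SYT1, 8.39), and 0 of 5 of endothelium and 0 of 3 of oligodendrocytes. Below the lower quartile of every array lay EPCAM (2.33) and CDH1 (4.33) of epithelium, PTPRC (2.45) and AIF1 (3.99) of leukocytes and microglia, and PECAM1 (3.81), KDR (4.27) and TEK (3.64) of endothelium. Their part in the results was not tested.

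STC1 was among the genes with the largest rises in hypoxia, and it was lower with HIF1A siRNA than with control siRNA. STC2 also rose, and its fall with HIF1A siRNA was called by a narrow margin. Neither gene was called different with HIF2A siRNA. Hypoxia raised STC1 9.73-fold (95% interval 7.83 to 12.1) and STC2 2.64-fold (2.05 to 3.41; n = 3 per group). Both members were called higher, where 3.37% of all genes were. Because these are bulk RNA samples, a change in the number of cells that make a transcript and a change in RNA per cell cannot be told apart.

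STC1 measured 7.93, 7.76 and 7.86 in normoxia and 11.32, 11.04 and 11.05 in hypoxia with control siRNA. The lowest hypoxic array lay more than 3 log2 units above the highest normoxic one. The log2 change was 3.28 (SE 0.14, adjusted p = 5.5e-07), the 4th largest rise of the 14232 genes. On the normoxic arrays STC1 already lay above 64.2% to 65.5% of probe sets, and in hypoxia above 96.3% to 96.8%.

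STC2 measured 7.54, 7.28 and 7.76 in normoxia and 9.07, 8.60 and 9.12 in hypoxia with control siRNA. The groups did not overlap, but the second replicate was the lowest in both. The log2 change was 1.40 (SE 0.17, adjusted p = 5.5e-04), the 53rd largest rise. STC2 moved from above 57.1% to 63.5% of probe sets on the normoxic arrays to above 79.4% to 84.7% on the hypoxic ones.

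**Figure D1:**
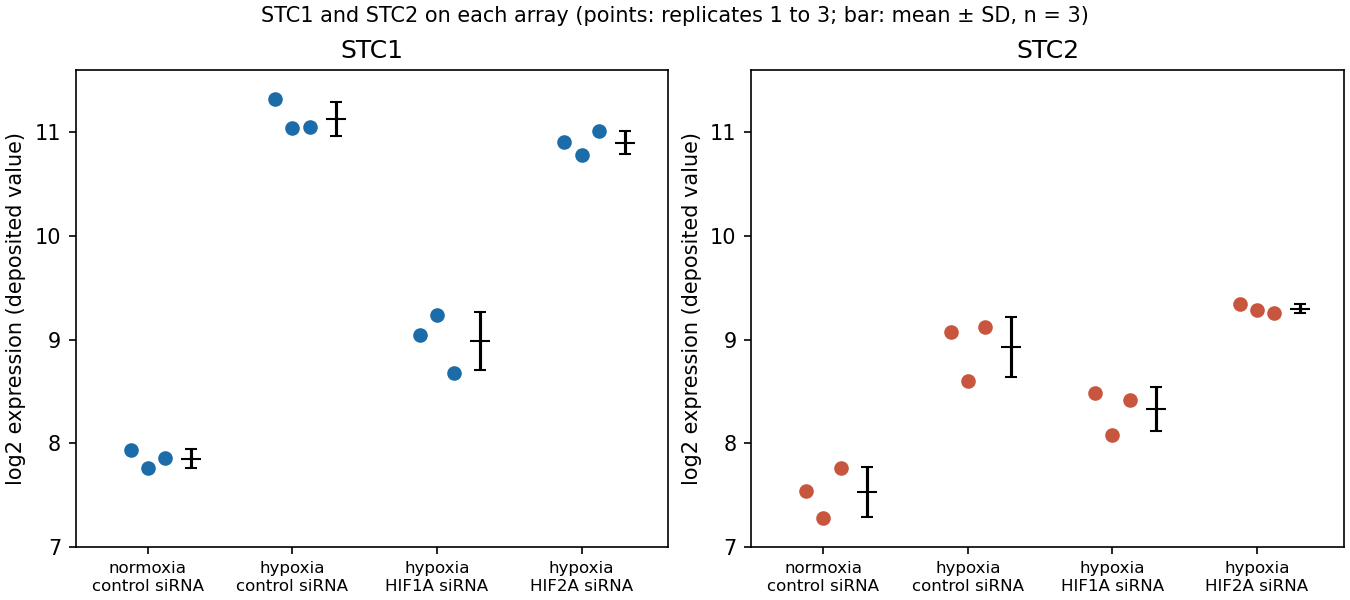
Deposited log2 expression of STC1 (left) and STC2 (right) on each of the 12 arrays by group, with points for replicates 1 to 3 and a bar for the mean ± SD (n = 3). STC1 falls from 11.13 to 8.99 between control and HIF1A siRNA in hypoxia, while the STC2 groups lie closer together and its HIF2A siRNA arrays (9.26 to 9.34) lie above all others.

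With HIF1A siRNA in hypoxia, STC1 measured 9.04, 9.24 and 8.68. All 3 arrays lay between the normoxic and the hypoxic control arrays, without overlap with either. STC1 fell 4.43-fold against control siRNA (log2 change -2.15, SE 0.14, adjusted p = 5.7e-05), to 22.6% of the hypoxic level, the 9th largest fall of all genes. It stayed 2.20-fold above normoxia (log2 change 1.13, SE 0.14, adjusted p = 0.0021). The 3 HIF1A siRNA arrays held STC1 and HIF1A in the same order, with replicate 2 highest in both (9.24 and 9.06) and replicate 3 lowest (8.68 and 7.74). Replicate 3 was also the array with the narrowest range. In replicate order, STC1 lay above 85.1%, 87.1% and 85.3% of probe sets and HIF1A above 74.6%, 85.4% and 72.8%. By these percentiles replicate 2 was still highest for both genes, but replicate 3 was lowest for HIF1A only. A relation over 3 arrays was not tested.

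STC2 with HIF1A siRNA measured 8.48, 8.08 and 8.42. The highest of these lay just under the lowest hypoxic control array (8.60), and the lowest of them above the highest normoxic one (7.76). STC2 was called lower than with control siRNA by a narrow margin (log2 change -0.60, SE 0.17, a 1.52-fold difference, adjusted p = 0.043), and 10.2% of all genes were called lower in this comparison. The call did not hold when arrays were put on a common distribution, with a log2 change of -0.32 (adjusted p = 0.22) after quantile normalization and -0.34 (adjusted p = 0.22) after cyclic loess. It was also lost without hypoxia control replicate 1 (adjusted p = 0.17) or 3 (0.12), HIF1A siRNA replicate 2 (0.084) or 3 (0.089), normoxia replicate 1 (0.062) or 3 (0.051), and HIF2A siRNA replicate 1 (0.062), 2 (0.054) or 3 (0.057), with log2 changes of -0.65 to -0.48. STC2 stayed 1.74-fold above normoxia (log2 change 0.80, SE 0.17, adjusted p = 0.0067), so both members were called higher than in normoxia with HIF1A siRNA, as were 4.67% of all genes.

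With HIF2A siRNA the paralogs lay on opposite sides of the hypoxic control, and neither difference was called. STC1 measured 10.91, 10.78 and 11.01, each below the lowest control array (11.04). The log2 difference was -0.24, with a 95% interval of -0.55 to 0.08 (SE 0.14, adjusted p = 1). STC2 measured 9.34, 9.29 and 9.26, each above the highest control array (9.12), and varied least of all groups (SD 0.04). Its log2 difference was 0.37, with an interval of 0.00 to 0.73 (SE 0.17, adjusted p = 1). Lack of overlap was not particular to the pair, since IGFBP5 (-0.34) and ASNS (0.29), taken up below, also showed it here. Its share over all genes is not given, so it is no sign of a response. The only gene limma called in this comparison was EPAS1 itself, or 0.00703% of all genes, while 502 genes had an unadjusted p under 0.05. Against normoxia with HIF2A siRNA as the hypoxic group, STC1 was 8.26-fold (log2 change 3.05, adjusted p = 9.2e-07) and STC2 3.41-fold higher (log2 change 1.77, adjusted p = 1.2e-04), both called, as were 2.85% of all genes. Comparisons that use the same normoxic or hypoxic control arrays are not independent of each other.

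Set directly against each other, the siRNAs left different levels of both genes. STC1 was 3.76-fold lower with HIF1A siRNA than with HIF2A siRNA (log2 change -1.91, SE 0.14, adjusted p = 7.1e-05). STC2 was 1.96-fold lower (log2 change -0.97, SE 0.17, adjusted p = 0.0075). Both were called lower, where 8.53% of all genes were, and without any 1 array the change of STC2 stayed between -1.05 and -0.85 and called (highest adjusted p 0.042). For STC1 the order of group means was hypoxia with control siRNA (11.13), HIF2A siRNA (10.90), HIF1A siRNA (8.99) and normoxia (7.85), of which the first 2 were not called different. For STC2 it was HIF2A siRNA (9.30), control siRNA (8.93), HIF1A siRNA (8.33) and normoxia (7.53). Neither step around the hypoxic control of STC2 was firm, since the upper was not called and the lower lost its call as described.

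**Figure D2:**
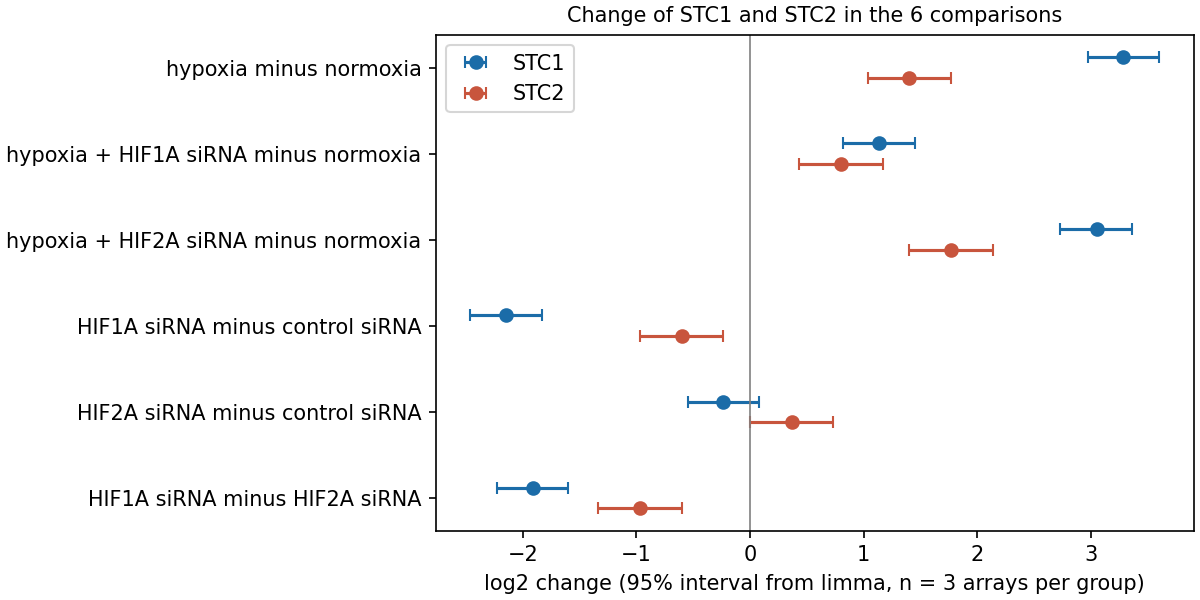
Log2 change of STC1 and STC2 in the 6 comparisons, with limma's 95% intervals (n = 3 arrays per group). The intervals of the paralogs overlap for hypoxia with HIF1A siRNA against normoxia (0.82 to 1.45 and 0.43 to 1.17) and lie apart for hypoxia against normoxia.

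How much of a gene's hypoxic rise was left was expressed as a percentage, its log2 rise over normoxia under an siRNA against HIF1A or HIF2A over its rise under control siRNA. With HIF1A siRNA, STC1 kept 34.6% (SE 3.9) of its rise of 3.28, at 36.1%, 42.2% and 25.3% on the single arrays. STC2 kept 57% (SE 11) of its rise of 1.40, at 67.8%, 39.5% and 63.7%. The single-array shares of the paralogs overlap, through the second replicate, which was the highest for STC1 and the lowest for STC2.

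With HIF2A siRNA, STC1 kept 92.8% (SE 4.2) of its rise and STC2 126% (SE 14), at 89.2% to 96.1% and 124% to 129% on the single arrays. These ranges do not overlap, but the array shares of a gene are taken over the same normoxic and hypoxic means, whose error they do not show. Leaving out hypoxia control replicate 2, the lowest for STC2, brought its share to 113%, and leaving out replicate 1 or 3 to 133% or 135%.

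The same shares were taken for all 303 genes called higher in hypoxia by at least 1.5-fold, HIF1A and EPAS1 aside. Their median share was 13.2% with HIF1A siRNA (quartiles -12.3% and 34.4%) and 92.4% with HIF2A siRNA (78% and 105%). Counted from the lowest share, STC1 was 229th of 303 and STC2 276th with HIF1A siRNA, so both kept more of their rise than the median induced gene. These ranks take no account of the size of the rise. The genes with larger rises than STC1 lay on both sides of its share with HIF1A siRNA, BEND5 at 14.5%, ANGPTL4 at 36.9% and ALDOC at 47.1%. With HIF2A siRNA, STC1 was 157th, near the middle, and STC2 285th. Of the 303, HIF1A siRNA lowered 261 (86.1%) with a call, STC1 and STC2 included, where 10.2% of all genes were called lower. HIF2A siRNA lowered 0 of the 303 by limma, with 36 lower at an unadjusted p under 0.05. The 303 were chosen for high values on the same hypoxic control arrays that serve as the reference here, which favours a fall.

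Quantile normalization raised the shares with HIF1A siRNA, to 45.0% for STC1, 78.9% for STC2 and 39.0% for the median induced gene. STC2 then lay at the 89.8th percentile of the induced genes, against the 91.1st on the deposited scale, while STC1 moved from the 75.6th to the 60.4th. On the linear scale, from the values before taking logarithms, STC1 kept 13.9% and STC2 44.6%. The position of STC2 near the upper end was thus shared by the deposited and the quantile-normalized values, and that of STC1 above the upper quartile was not.

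**Figure D3:**
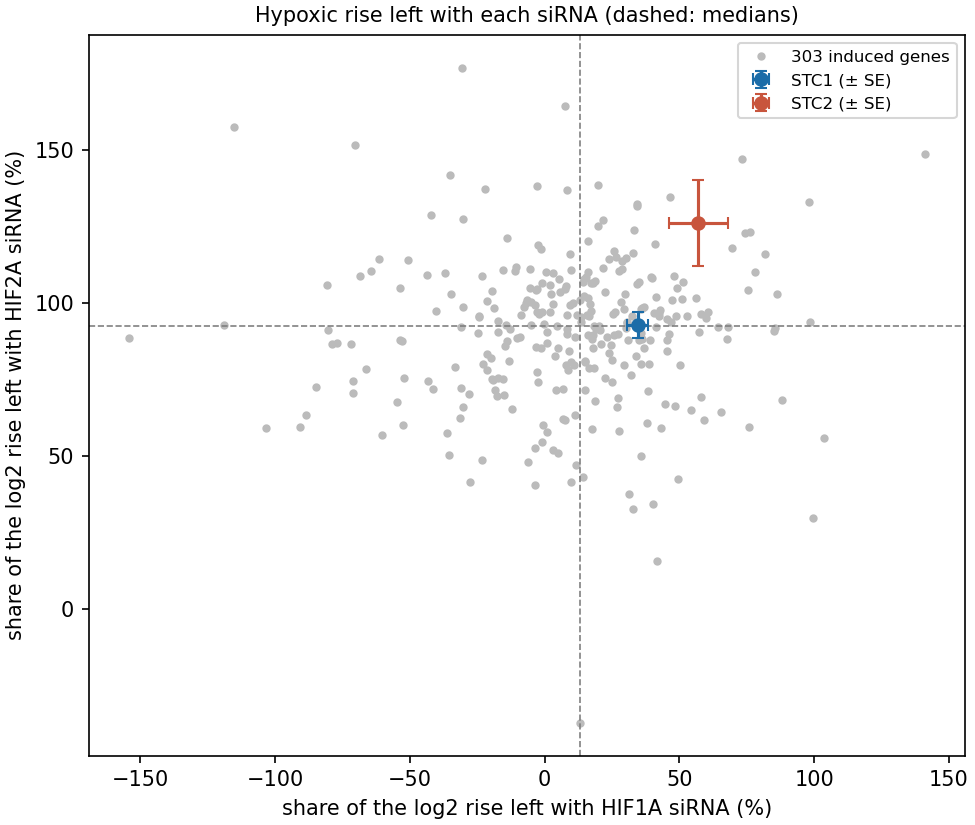
Share of the hypoxic log2 rise left with HIF1A siRNA (horizontal) and with HIF2A siRNA (vertical), in percent, for the 303 induced genes (grey) and for STC1 and STC2 with their SE; dashed lines are the medians (13.2% and 92.4%). STC1 lies right of the vertical median near the horizontal one, and STC2 lies in the upper right at 57% and 126%.

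The difference of STC1 minus STC2 within each array shows where the paralogs moved unequally, without a comparison of their levels. This difference was 0.39, 0.48 and 0.11 in normoxia and 2.25, 2.44 and 1.93 in hypoxia with control siRNA. With HIF1A siRNA it was 0.56, 1.16 and 0.26, and with HIF2A siRNA 1.57, 1.49 and 1.74. The hypoxic control arrays lay above all others, and the HIF1A siRNA arrays overlapped the normoxic ones.

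In hypoxia the change of STC1 minus that of STC2 was 1.88 log2 units (SE 0.23). With HIF1A siRNA against control siRNA the change of STC1 minus that of STC2 was -1.54 (SE 0.23), and with HIF2A siRNA -0.60 (SE 0.23). Each of these had an exact two-sided permutation p = 0.1, the smallest that 3 arrays against 3 can give (0.12 adjusted over the 6 comparisons), so this test cannot place them under 0.05. Between hypoxia with HIF1A siRNA and normoxia the paralogs differed in their change by 0.33 (SE 0.23, exact two-sided permutation p = 0.4). In log2 units the rise left with HIF1A siRNA was thus not shown to differ between them. The percentage shares of the paralogs were not compared by a test.

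Of the IGF axis and the pappalysins, the stanniocalcins' binding partners, 9 of 12 listed genes were measured. In hypoxia 3 rose and 0 fell, where 3.37% of all genes were called higher and 8.95% lower (median log2 change 0.17, against -0.03 over all genes). IGFBP5, a binding protein that PAPP-A2 cuts, measured 9.63, 9.57 and 9.50 in normoxia and 11.48, 11.44 and 11.59 in hypoxia. It rose 3.83-fold (log2 change 1.94, SE 0.13, adjusted p = 9.6e-06) with no overlap. IGFBP3, the main carrier of IGFs in blood, rose by the same 1.94 (SE 0.14), and the receptor IGF1R rose by 0.63 (SE 0.10, adjusted p = 0.0031).

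HIF1A siRNA lowered the same 3 genes, where 10.2% of all genes were called lower. The log2 changes were -1.28 for IGFBP5 (adjusted p = 3.1e-04), -1.19 for IGFBP3 and -0.62 for IGF1R. That of IGF1R was not called when the fit held only the 2 groups compared (adjusted p = 0.094). Of the 9, 0 were called higher, where 122 of 14232 genes were (median 0.01, against -0.05 over all genes). After quantile normalization 1 of the 9 was called higher. IGFBP5 and IGFBP3 kept 34.0% and 38.4% of their rise, and IGF1R 0.86%. With HIF2A siRNA 0 of the 9 were called by limma, and the shares left were 82.7%, 71.2% and 57.6%. IGFBP4, a substrate of PAPP-A, gave -0.02 in hypoxia (SE 0.12) and 0.16 with HIF1A siRNA (SE 0.12), neither called. PAPPA2 averaged 4.83 in normoxia and 4.86 in hypoxia, close to the arrays' lower quartile (4.73 to 4.79), and no change was called. PAPPA, IGF2 and IGF2R were not analysed here.

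STC1 and STC2 are themselves secreted proteins induced with other hypoxia-linked secreted factors, of which 14 of 17 listed symbols were measured (CTGF and CCN2 are the same gene). In hypoxia 6 rose, where 3.37% of all genes did, and 0 fell (median 0.37). ANGPTL4, a regulator of lipoprotein lipase, rose by 3.32, VEGFA, the main endothelial growth factor, by 2.37, IGFBP3 by 1.94, and the vasodilator peptide adrenomedullin (ADM) by 1.76. HIF1A siRNA lowered 5 of the 14 and raised 0 (median -0.12), where 10.2% of all genes were called lower and 122 of 14232 higher. The largest of these falls were -2.10 for ANGPTL4, -1.19 for IGFBP3, -1.13 for ADM and -0.93 for VEGFA, all with adjusted p of 0.0017 or less. Without HIF1A siRNA replicate 2, 1 of the 14 was called higher. The shares of the rise left were 36.9% for ANGPTL4, 36.0% for ADM and 60.7% for VEGFA, beside 34.6% for STC1 and 57% for STC2. With HIF2A siRNA 0 of the 14 were called by limma. The shares left were then 85.1% for ANGPTL4, 71.2% for IGFBP3, 98.2% for ADM and 97.1% for VEGFA.

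STC2 is also known as an ATF4 target, and 22 of the 23 listed symbols of ATF4, its targets and its PERK-linked partners were measured, the other being CARS, an older symbol of the measured CARS1. In hypoxia 9 rose, where 3.37% of all genes did, and 0 fell (median 0.34), 15 rose after quantile normalization or cyclic loess, and 5 without normoxia replicate 3. VLDLR, a lipoprotein receptor, rose by 2.40, DDIT4, an inhibitor of mTORC1, by 2.05, PSAT1 of serine synthesis by 1.23 (SE 0.19), and the pseudokinase TRIB3 by 0.94 (SE 0.11). The ATF4 transcript itself was at 7.08 ± 0.17 in normoxia and 7.13 ± 0.07 in hypoxia (mean ± SD, n = 3; adjusted p = 0.85). ATF4 is controlled largely at translation, which arrays do not measure.

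HIF1A siRNA lowered 2 of the 22, VLDLR (-1.62) and DDIT4 (-0.87), a share near the 10.2% of all genes called lower. It raised 0 (median -0.06), where 122 of 14232 genes were called higher. After quantile normalization, after cyclic loess or without HIF1A siRNA replicate 3, 1 of the 22 was called higher. DDIT4 was not called when the fit held only these 2 groups (adjusted p = 0.059). Their shares of the rise left were 32.6% and 57.4%. PSAT1 kept 74.3%, TRIB3 69.4% and asparagine synthetase, ASNS, 98.1%, and for none of these 3 was the difference from control siRNA called (-0.32, -0.29 and -0.02). CHAC1, which degrades glutathione, was at 141% and CARS1, a tRNA synthetase, at 30.2%, neither called different from control siRNA. The hypoxic rise of CHAC1 (0.88) was not called without any 1 of the normoxic or hypoxic control arrays (highest adjusted p 0.10). With HIF2A siRNA the shares of these 7 genes, all those of the list that rose at least 1.5-fold, lay on both sides of the full rise, at 123% for PSAT1, 118% for TRIB3, 133% for ASNS and 149% for CHAC1, and at 95.6% for VLDLR, 90.4% for DDIT4 and 91.8% for CARS1. STC2 was at 126%, and limma called 0 of the 22. Whether STC2 moved with these genes was not tested.

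**Figure D4:**
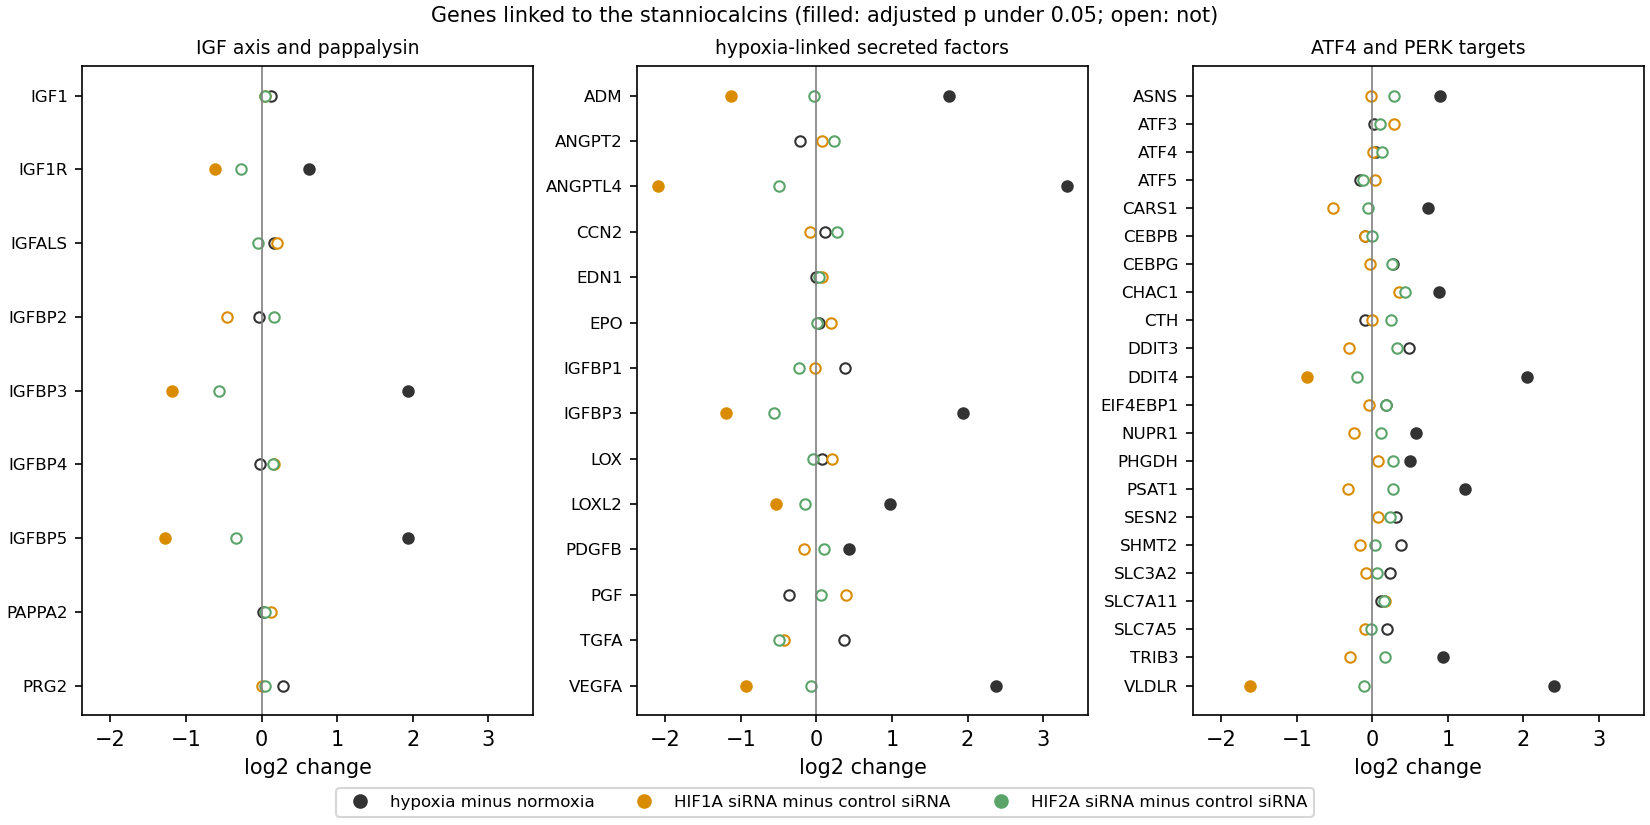
Log2 changes of the measured genes of the IGF axis and pappalysins (left), hypoxia-linked secreted factors (middle) and ATF4 and PERK targets (right) in hypoxia (black), with HIF1A siRNA (orange) and with HIF2A siRNA (green) against hypoxia with control siRNA. Filled points were called (adjusted p under 0.05) and open points were not. ANGPTL4 shows the largest rise (3.32) and the largest fall with HIF1A siRNA (-2.10), and no point for HIF2A siRNA is filled.

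The unfolded protein response, whose PERK branch leads to ATF4, had 17 of 18 listed genes measured. In hypoxia 1 rose and 1 fell (median 0.04), where 3.37% of all genes were called higher and 8.95% lower. The rise of SEL1L, a degradation adaptor (0.55), and the fall of the chaperone gene DNAJB9 (-0.39) were each lost without any normoxia replicate or without hypoxia control replicate 2, SEL1L also without replicate 1 and DNAJB9 without replicate 3, with the replicate block and after median centring (highest adjusted p 0.079 and 0.14). Without HIF1A siRNA replicate 2 or 3, 2 or 3 of these genes were called higher in hypoxia. Over the other scalings and the replicate block, 1 to 4 were. HIF1A siRNA lowered 5 of the 17 and raised 0 (median -0.22), where 10.2% of all genes were called lower and 122 of 14232 higher. All 5 (DNAJC3, HERPUD1, HSPA5, SEL1L and HYOU1) lost their calls when only the groups compared were fitted, and DNAJC3, HERPUD1 and HSPA5 also with array weights and with the replicate block, which left 2. That count fell to 0 without hypoxia control replicate 1, to 1 without HIF1A siRNA replicate 3, and to 2 without any normoxia replicate, without hypoxia control replicate 2 or 3, or without HIF2A siRNA replicate 1 or 3.

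Calcium and phosphate handling, the function for which the hormones were first known, had 16 of 19 listed genes measured. In hypoxia 2 rose and 2 fell (median -0.07), where 3.37% of all genes were called higher and 8.95% lower. SLC8A1, a sodium and calcium exchanger, rose by 0.74 (SE 0.13, adjusted p = 0.0046), from a normoxic mean of 4.23, below the lower quartile of every array, where small signals are hard to size. The phosphate transporter SLC20A1 fell by 0.67 (SE 0.13, adjusted p = 0.0078). The calls of ORAI3, a calcium channel subunit (0.45), and the phosphate exporter XPR1 (-0.57) were both lost without normoxia replicate 1 or 3 or hypoxia control replicate 2 or 3, and XPR1 also without normoxia replicate 2 (highest adjusted p 0.13 and 0.12).

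Of these 16, HIF1A siRNA lowered 2, a share near the 10.2% of all genes called lower. It raised 0 (median -0.01), where 122 of 14232 genes were called higher, though 2 of the 16 were after quantile normalization or cyclic loess. The calcium pump ATP2B1 (-0.91) was no longer called once hypoxia control replicate 1 or HIF1A siRNA replicate 3 was dropped (highest adjusted p 0.13 over the settings tried). STIM2, a calcium sensor (-0.41), lost its call without any 1 of 10 arrays, the exceptions being hypoxia control replicate 2 and HIF1A siRNA replicate 1, and also after quantile normalization, cyclic loess or median centring, with array weights, with adjustment over all probe sets and with only the groups compared (highest adjusted p 0.26). STIM1, the calcium sensor to which STC2 is known to bind, stood at 8.29 ± 0.05 in normoxia and 8.22 ± 0.15 in hypoxia, and at 7.95 ± 0.33 with HIF1A siRNA (adjusted p = 0.23). HIF2A siRNA changed 0 of the 16 by limma.

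Of 4 measured mitochondrial uncoupling genes, 1 fell in hypoxia and 0 rose (median -0.04). Of all genes, 8.95% were called lower in this comparison and 3.37% higher. The gene that fell was UCP2, which STC1 is known to induce in some cells, by 0.41 (SE 0.11, adjusted p = 0.038). UCP2 measured 8.33, 8.38 and 8.47 in normoxia and 8.03, 8.06 and 7.86 in hypoxia, without overlap. The call was lost after quantile normalization or cyclic loess, without any 1 normoxic or hypoxic control array, and without HIF2A siRNA replicate 2 (highest adjusted p 0.17). Neither siRNA gave a call among the 4 with limma. Of all 14232 genes, HIF1A siRNA gave a call lower for 10.2% and a call higher for 122.

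Likeness of pattern was measured as Pearson's r over the 12 arrays, among 1075 genes whose group means spanned at least 1 log2 unit, as a description only, since the arrays fall into 4 groups that set most of each r. STC1 was most like VLDLR (r = 0.997), the glycolytic enolase ENO2 (0.996), glucose phosphate isomerase GPI (0.995), ADM (0.994) and LONP1, a mitochondrial protease (0.992). Their rises in hypoxia ran from 1.11 to 2.77 and their changes with HIF1A siRNA from -1.78 to -0.71, each called.

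STC2 was most like PDK1, a kinase that restrains pyruvate oxidation (r = 0.959), the mitophagy receptor BNIP3L (0.941), ADM (0.940), VEGFA (0.939) and the endocytic receptor LRP1 (0.939). Their rises ran from 1.43 for LRP1 to 2.37 for VEGFA and their changes with HIF1A siRNA from -1.13 to -0.57, each called. STC1 and STC2 correlated at r = 0.919. By that measure 84 genes were closer to STC1 than STC2 was, and 19 were closer to STC2 than STC1 was, and ADM was the only gene among the 5 nearest to both.

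**Figure D5:**
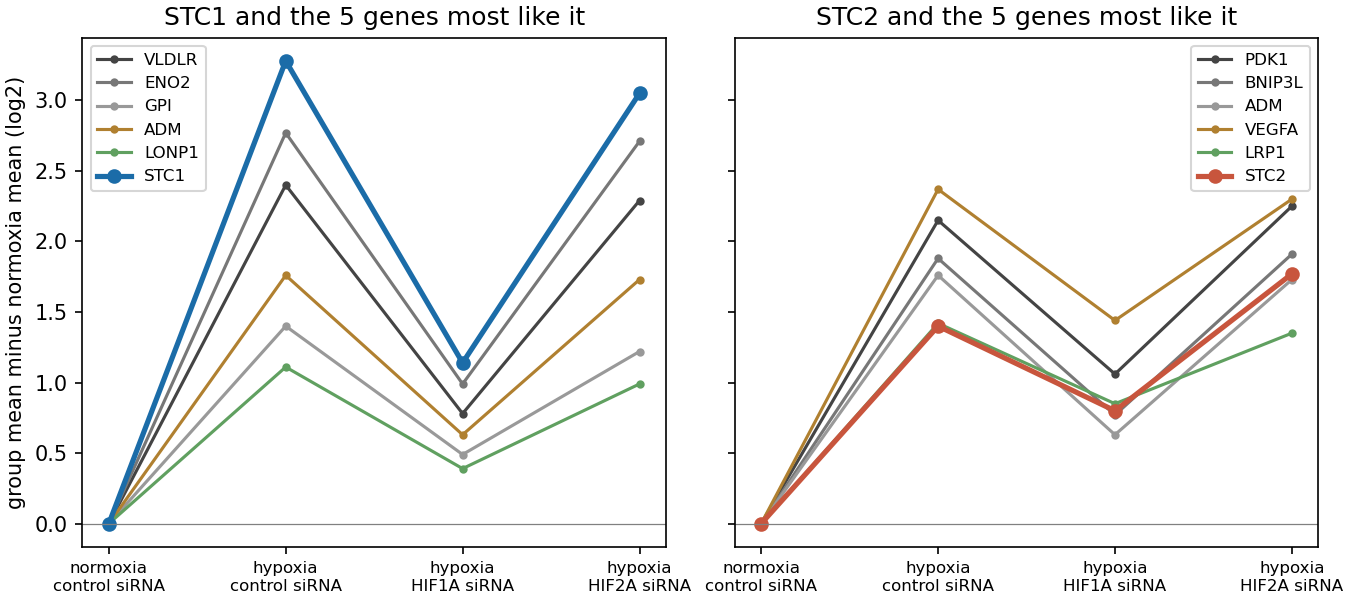
Group means minus the normoxia mean (log2) for STC1 (left, blue) and STC2 (right, red) with the 5 genes whose values over the 12 arrays correlate best with each. The STC1 set falls between control and HIF1A siRNA and returns with HIF2A siRNA, while STC2 ends higher with HIF2A siRNA (1.77 above normoxia) than with control siRNA (1.40).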

How the data were processed

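RNA of 12 LN229 samples was labelled by the whole-transcript sense target assay and hybridised to Affymetrix arrays, per the labels' protocols. The authors deposited 1 log2 value per probe set and array. Partek and hg18 are named in the submitters' processing notes, and how background was corrected and arrays were normalized is not given in the sources used here. Base 2 was inferred from the range of the values (1.14 to 14.3). Of 22011 probe sets, 14432 carry 1 gene symbol, 2408 several and 5171 none. The probe set with the highest mean stood for a gene, giving 14232 genes.

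Groups came from sample titles. The deposited values were fitted with limma 3.58.1 in R 4.3.3 (group means over all 12 arrays, eBayes) and adjusted by Benjamini-Hochberg over the 14232 genes. The fit was also run on simulated data with independent noise for each probe set. Those data held no difference in range between arrays, so that run cannot speak to such differences here. The change of STC1 minus STC2 was tested by exact permutation. Precision is limited by 3 arrays per group. Named were the pair, the siRNA targets, cell type markers, known partners, and the 5 genes most like each member. Of each list, at most the 4 largest called changes per comparison were named, with 2 exceptions. These were all ATF4-list genes that rose at least 1.5-fold and all unfolded protein response genes called lower with HIF1A siRNA. The genes that rose more than STC1 were also named. The pair and the lists were chosen with earlier results of these data known. Alternatives were 3 scalings, a filter on dim probe sets, array weights, a trended robust variance, a replicate block, adjustment over all probe sets, fits of only the groups compared, a linear scale for shares, and leaving out each array. Same-numbered arrays of different groups correlated above 0.1 in their deviations in 5 of 18 pairs, so the numbers were not taken to pair samples. Probe sets with several or no symbols were left out of the gene counts.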

Additional observations from a re-analysis of the deposited data

How the results depend on the processing

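Every comparison of STC1 and STC2 kept its direction under 9 other settings and with each of the 12 arrays left out, and all but STC2 with HIF1A siRNA against control siRNA kept their side of the threshold. That change (-0.60) lost its call after quantile normalization (-0.32), cyclic loess (-0.34), median centring (-0.48), array weights (-0.74) and with only the groups compared (-0.60, adjusted p = 0.16), and ran from -0.77 to -0.48 with 1 array left out. With the replicate block it was -0.60 (adjusted p = 0.021), and the block changed no other call of the pair. By number, 4 of 12 arrays correlated best with their own number. The share of the rise left with HIF1A siRNA was 45.0%, 44.2% and, on the linear scale, 13.9% for STC1, and 78.9% and 78.2% for STC2, after quantile normalization and cyclic loess in that order. With HIF2A siRNA it was 82.9% for STC1 on the linear scale, and for STC2 123% after cyclic loess, 144% on the linear scale and 113% to 135% with 1 array left out. The lists held 9, 14, 22, 17, 16 and 4 measured genes in the order given above, with IGFBP3 on the first 2. Over all lists, 20 genes were called higher and 4 lower in hypoxia, where 3.37% of all genes were called higher and 8.95% lower. With HIF1A siRNA 0 were called higher and 16 lower, where 122 of 14232 genes were called higher and 10.2% lower. With 1 array left out the counts over the lists were 13 to 25, 1 to 5, 0 to 1 and 8 to 17. The lowest counts came without normoxia replicate 3 (13), without any normoxia replicate or hypoxia control replicate 2 or 3 (1), and without hypoxia control replicate 1 (8; 10 without HIF1A siRNA replicate 3). With HIF1A siRNA 4 were called higher after quantile normalization, 3 after cyclic loess and 1 after median centring. The split of all calls moved with scaling. After quantile normalization, calls higher and lower went from 480 and 1274 to 946 and 1200 in hypoxia, from 122 and 1451 to 726 and 1124 with HIF1A siRNA against control siRNA, and from 664 and 4322 to 2241 and 2082 with HIF1A siRNA against normoxia. They went from 405 and 967 to 768 and 903 with HIF2A siRNA against normoxia, and from 128 and 1214 to 799 and 981 between the siRNAs. The median change of all genes with HIF1A siRNA against normoxia moved from -0.12 to 0.08, and the cause was not tested. Depth does not apply to arrays, and both members lay above the lower quartile of all 12. Averaging a gene's probe sets was not run, since each member has 1.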
